A study of Mus musculus with 4 samples.

Results

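The genes examined were 47 iron and 2-oxoglutarate dependent dioxygenases of the mouse, taken by symbol from the 49585 genes measured. They fall into 7 classes: 17 JmjC histone demethylases, 6 other JmjC proteins, 3 TET proteins, 9 enzymes of the ALKBH family with FTO, 3 OGFOD proteins, 6 collagen prolyl hydroxylases and 3 procollagen lysyl hydroxylases. In the annotation deposited with the values, 46 of the 47 carried a dioxygenase activity term, 20 an iron ion binding term and 12 an L-ascorbic acid binding term.

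Enzymes of this family hold a ferrous iron in the active site, split molecular oxygen, oxidise 2-oxoglutarate to succinate and hydroxylate their substrate. Ascorbate keeps the iron in its reduced state, and iron chelators, hypoxia and 2-hydroxyglutarate can lower the activity. The JmjC demethylases and several ALKBH enzymes hydroxylate a methyl group bound to nitrogen, which then leaves as formaldehyde. TET enzymes oxidise the methyl group of 5-methylcytosine step by step, and the collagen enzymes leave a hydroxyl group on proline or lysine. The EGLN prolyl hydroxylases of the same family mark hypoxia–inducible factor (HIF) for degradation, and several dioxygenase genes are in turn known targets of HIF, among them P4ha1, P4ha2, Plod1, Plod2, Kdm3a, Kdm4b and Kdm4c. These 7 are called the HIF–target dioxygenases here. The list was written with earlier results of these data known.

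RNA came from cultured 4T1 cells, a murine triple–negative breast cancer line. Clone 4T1–HM has a high and clone 4T1–LM a low metastatic capacity, and each was grown from 1 cell, so each stands for 1 clone of the line. The 4 libraries were HM_Ctrl and LM_Ctrl, grown with the vehicle DMSO, and HM_DFX and LM_DFX, grown for 48 h with 50 μmol/L of deferasirox (DFX), an oral iron chelator. Each condition has 1 library, so the differences lack any replicate check and come without p–values.

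Levels are FPKM, fragments on a gene scaled for its exon length and for the total of the library. Differences are log2 ratios of FPKM + 1, a scale that shrinks the differences of scarce genes, and those that reached 2-fold on it were called, as higher or lower. Genes whose FPKM reached 1 in any library counted as expressed, which kept 12669 genes. Fragment numbers were recovered from the whole–number steps of the FPKM and gave totals of 14363061 to 21883854 fragments per library. Values written as fold are FPKM ratios without a pseudocount, with their 95% intervals in parentheses. These are exact binomial intervals, cover counting error only and do not include variation between cultures. All 6 epithelial markers were expressed, and their summed FPKM was 1666 without and 477 with DFX in 4T1–HM cells, and 2252 and 968 in 4T1–LM cells. Of 10 markers of other cell types 1 was expressed, Pdgfra at an FPKM of 2.77 to 5.50, the summed FPKM of the 10 was 3.73 to 5.73, and Cd3e and Pdgfrb were among those at 0 in all 4 libraries. The epithelial sum was lower with DFX in both clones, and its part in the results was not tested. In bulk RNA, fewer cells of a type and less RNA per cell cannot be told apart.

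The promoters shown here are those of the 3 catalytic subunits of collagen prolyl 4-hydroxylase, P4ha1 and P4ha2, which DFX raised in 4T1–LM cells, and P4ha3, which it did not, and of Plod1, whose response differed between the clones. Each is the window of 250 bases before the RefSeq transcription start (build GRCm38.p6), written 5′ to 3′ on the strand of the gene. Capitals mark ACGTG and GCGTG, the core of the HIF binding motif, on either strand (CACGT and CACGC when read from the other one). None of the 4 windows overlaps an exon of the annotation, and that of P4ha2 lies within the gene as annotated, in an intron.
P4ha1, chr10:59323046-59323295, plus strand: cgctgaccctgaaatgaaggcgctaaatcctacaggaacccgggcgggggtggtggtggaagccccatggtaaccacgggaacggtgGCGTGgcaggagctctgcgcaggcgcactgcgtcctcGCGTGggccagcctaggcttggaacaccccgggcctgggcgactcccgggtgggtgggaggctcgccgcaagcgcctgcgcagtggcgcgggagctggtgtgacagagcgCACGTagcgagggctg
P4ha2, chr11:54100674-54100923, plus strand: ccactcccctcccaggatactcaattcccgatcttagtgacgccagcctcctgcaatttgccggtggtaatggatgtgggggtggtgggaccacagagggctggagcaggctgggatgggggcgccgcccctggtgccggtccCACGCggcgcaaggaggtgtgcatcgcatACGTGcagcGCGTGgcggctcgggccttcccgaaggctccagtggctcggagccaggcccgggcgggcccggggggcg
P4ha3, chr7:100285270-100285519, plus strand: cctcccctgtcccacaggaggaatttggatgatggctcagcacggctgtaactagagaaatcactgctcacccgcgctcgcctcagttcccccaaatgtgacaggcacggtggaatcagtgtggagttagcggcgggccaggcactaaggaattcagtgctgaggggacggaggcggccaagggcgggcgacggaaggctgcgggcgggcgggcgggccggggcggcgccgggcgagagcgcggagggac
Plod1, chr4:147936777-147937026, minus strand: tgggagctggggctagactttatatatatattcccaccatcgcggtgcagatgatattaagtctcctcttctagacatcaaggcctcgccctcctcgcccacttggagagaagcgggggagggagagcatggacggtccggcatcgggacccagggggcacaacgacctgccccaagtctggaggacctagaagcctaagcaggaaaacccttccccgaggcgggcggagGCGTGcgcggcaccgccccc
The P4ha1 window held 3 matches, which began 163, 126 and 16 bases before the start. In the P4ha2 window 3 matches began 107, 78 and 69 bases before the start. The P4ha3 window held 0, and the Plod1 window held 1, which began 20 bases before the start. At least 1 match was present in 22 of the 39 member windows available (56.4%), in 59.1% of the 8634 windows of expressed genes and in 38.6% of all 27025 windows of this length. A match is a description of the letters and not a binding site. The 4 windows were chosen with the responses of their genes known, and a link between matches and response was not tested.

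Of the 47 genes 45 were expressed. Kdm4d, a demethylase of the KDM4 group, was below the limit with 0 to 9 fragments per library and an FPKM of at most 0.188, and so was Tet1, an enzyme that oxidises 5-methylcytosine, with 2 to 75 fragments and an FPKM of at most 0.233. Both are left out of the counts that follow. The most abundant dioxygenases were P4ha1, above 94.5% of the expressed genes by mean FPKM, and Alkbh5, above 93.7%. Jmjd6 stood above 86.2% and Plod2 above 86.0%. The plot of levels by library shows all 47 genes.

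**Figure D1:**
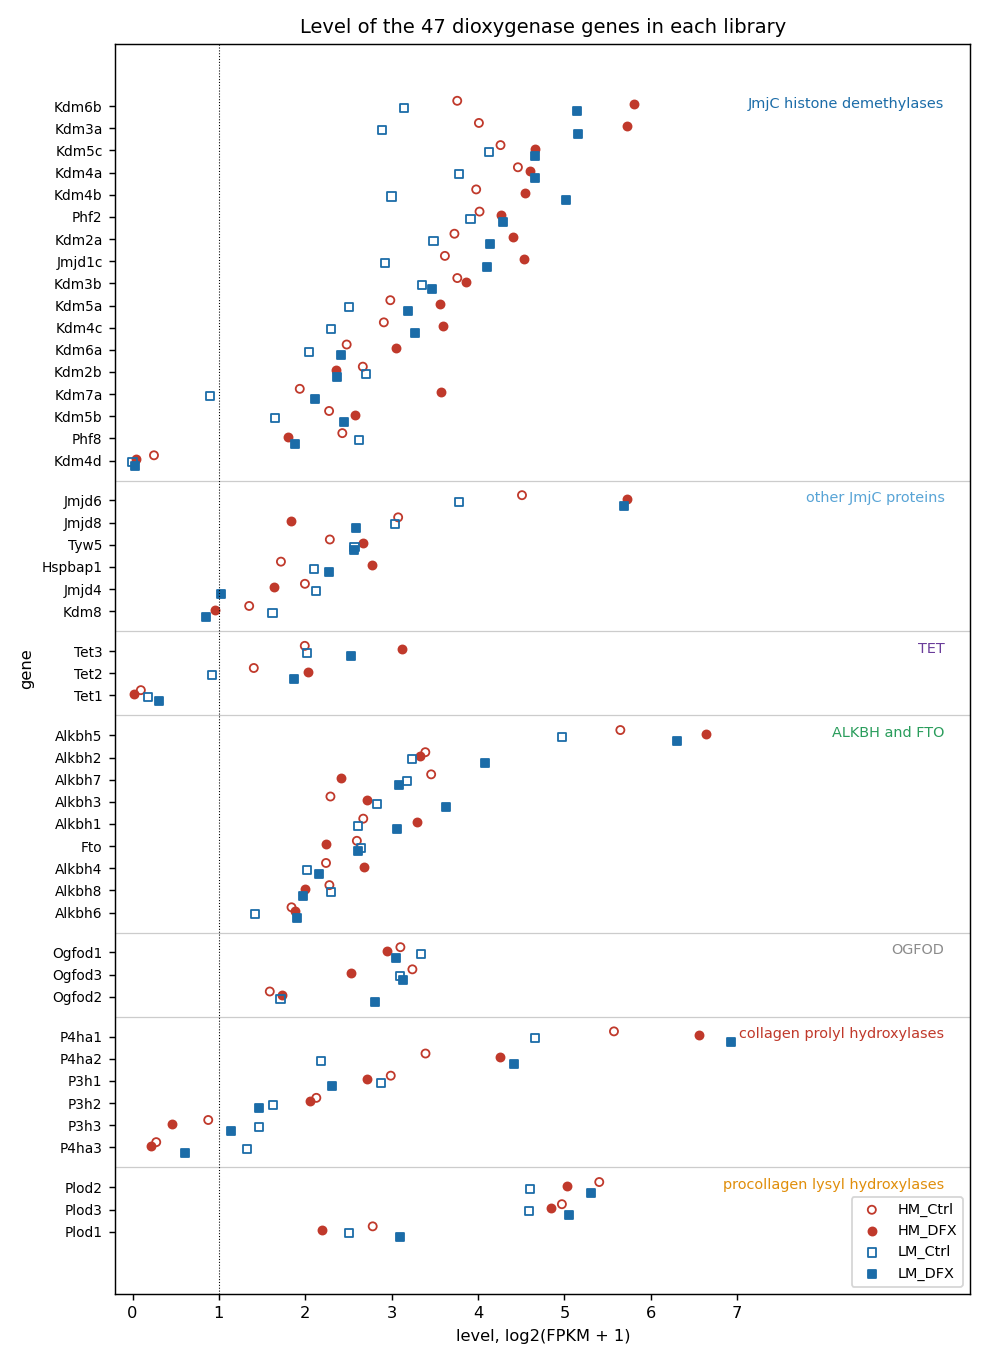
Level of each of the 47 dioxygenase genes as log2(FPKM + 1), horizontal axis, by gene and class, vertical axis. Circles are 4T1–HM and squares 4T1–LM, open without and filled with DFX, 1 library per symbol, and the dotted line is an FPKM of 1. P4ha1 reached an FPKM of 121 in LM_DFX, and Kdm4d and Tet1 lie left of the line in every library.

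DFX raised more dioxygenase genes than it lowered in either clone. In 4T1–HM cells 6 of 45 were higher (13.3%), against 6.93% of all expressed genes, and 2 were lower, against 12.4%. In 4T1–LM cells 10 were higher (22.2%), against 7.09% of all expressed genes, and 1 was lower, against 8.72%. The median log2 difference was 0.25 in 4T1–HM cells, where all expressed genes had a median of −0.10, and 0.49 in 4T1–LM cells, where they had −0.04. The 2 comparisons share no library. Kdm3a, Kdm6b, Kdm7a and Jmjd6 were higher in both clones, 66.7% of the 6 genes called in 4T1–HM cells and 40.0% of the 10 called in 4T1–LM cells. Over all expressed genes, 438 were higher in both, 49.9% of those called higher in 4T1–HM cells and 48.8% of those in 4T1–LM cells.

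**Figure D2:**
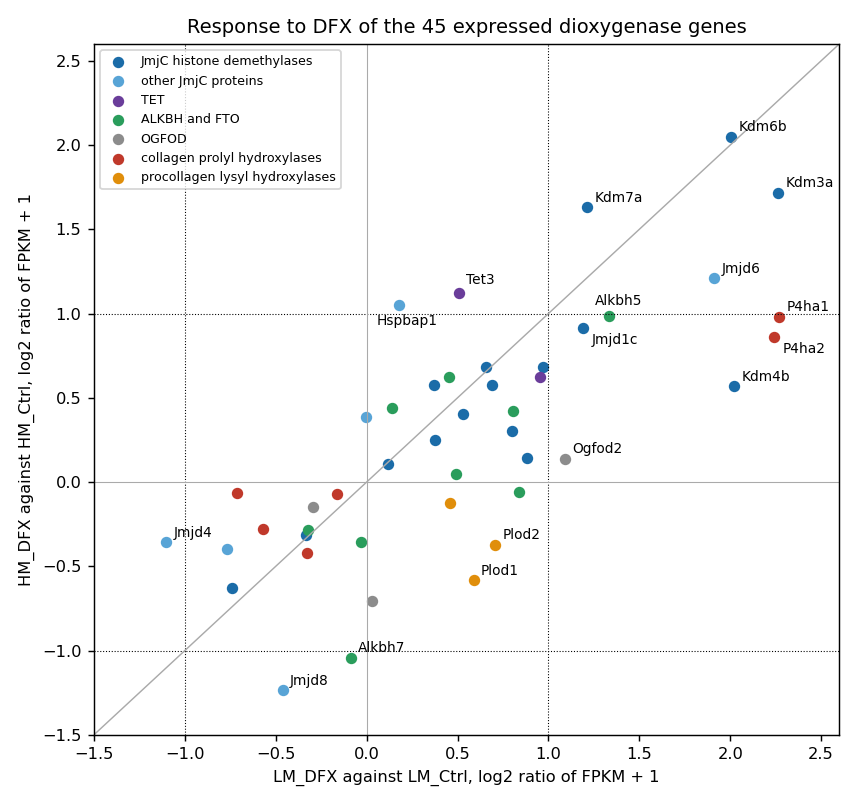
Log2 ratio of FPKM + 1 for DFX against control in 4T1–LM, horizontal axis, and in 4T1–HM, vertical axis, for the 45 expressed dioxygenase genes, coloured by class. Dotted lines mark 2-fold and the diagonal marks equal responses. Kdm6b lies on the diagonal near 2.0 on both axes, and P4ha1, P4ha2 and Kdm4b lie to its right at 2.02 to 2.27 in 4T1–LM and 0.57 to 0.98 in 4T1–HM.

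In the JmjC histone demethylases, the class with the most members, DFX gave positive log2 differences in 14 of 16 expressed members in each clone, with medians of 0.57 in 4T1–HM and 0.74 in 4T1–LM cells. In 4T1–HM cells 3 of the 16 were called higher (18.8%), against 6.93% of all expressed genes and 13.3% of all members, and in 4T1–LM cells 5 (31.2%), against 7.09% and 22.2%. None was called lower in either clone, against 12.4% of all expressed genes in 4T1–HM and 8.72% in 4T1–LM cells. Their summed FPKM was 167 without and 303 with DFX in 4T1–HM cells, and 116 and 246 in 4T1–LM cells.

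Kdm6b removes methyl groups from lysine 27 of histone H3, a mark of Polycomb silencing, and is known as a gene induced by inflammatory signals (ENSMUSG00000018476, chromosome 11, 69398508 to 69413675, minus strand, build mm10 as for all coordinates here). Its FPKM was 12.5 without and 55.1 with DFX in 4T1–HM cells, and 7.83 without and 34.4 with DFX in 4T1–LM cells. Both DFX libraries stood above both controls, and the response was of like size in the clones, 4.39-fold (4.14 to 4.66) in 4T1–HM and 4.40-fold (4.09 to 4.73) in 4T1–LM cells. On the log2 scale with the pseudocount it was 2.05 and 2.00, higher than in 99.2% and 98.6% of the expressed genes. The ratio of 4T1–HM to 4T1–LM was 1.60-fold (1.47 to 1.74) without DFX and 1.60-fold (1.54 to 1.66) with it.

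Kdm3a takes methyl groups off lysine 9 of histone H3, a mark of silent chromatin, and is a HIF target (ENSMUSG00000053470, chromosome 6, 71588972 to 71632990, minus strand). Its FPKM was 15.1 without and 52.0 with DFX in 4T1–HM cells, and 6.41 without and 34.6 with DFX in 4T1–LM cells. The DFX libraries were the highest pair, and HM_Ctrl was above LM_Ctrl. DFX raised it 3.44-fold (3.27 to 3.62) in 4T1–HM and 5.40-fold (5.02 to 5.81) in 4T1–LM cells. In log2 terms the responses of 1.72 and 2.26 exceeded those of 98.4% and 99.0% of the expressed genes. Kdm3b, from the same group, had log2 responses of 0.11 and 0.12. Jmjd1c, the remaining KDM3 relative (ENSMUSG00000037876, chromosome 10, 67096125 to 67256326, plus strand), had an FPKM of 11.3 without and 22.1 with DFX in 4T1–HM cells, and 6.56 without and 16.2 with DFX in 4T1–LM cells. It was above its control with DFX in both clones but was called higher in 4T1–LM cells, at 2.47-fold (2.33 to 2.62), whereas its ratio of 1.96-fold (1.87 to 2.06) in 4T1–HM cells was short of the limit.

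Kdm7a removes methyl groups from lysines 9 and 27 of histone H3 (ENSMUSG00000042599, chromosome 6, 39136623 to 39206789, minus strand). Its FPKM was 2.83 without and 10.8 with DFX in 4T1–HM cells, and 0.860 without and 3.31 with DFX in 4T1–LM cells, from 476 and 1567 fragments in the 4T1–HM pair and 136 and 729 in the 4T1–LM pair. HM_DFX was the highest library, and HM_Ctrl was near LM_DFX. The DFX response was 3.84-fold (3.46 to 4.26) in 4T1–HM and 3.85-fold (3.20 to 4.66) in 4T1–LM cells. The FPKM was 3.29-fold (2.71 to 4.01) higher in 4T1–HM than in 4T1–LM cells without DFX and 3.28-fold (3.00 to 3.58) higher with it, so the distance between the clones was of like size in both media. Kdm7a was the single member called higher in 4T1–HM cells in both comparisons of the clones.

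Kdm4b demethylates lysine 9 and lysine 36 of histone H3 and is a HIF target (ENSMUSG00000024201, chromosome 17, 56326062 to 56402870, plus strand). Its FPKM was 14.8 without and 22.4 with DFX in 4T1–HM cells, and 6.99 without and 31.4 with DFX in 4T1–LM cells. LM_Ctrl was the lowest library and LM_DFX the highest. DFX raised it 4.49-fold (4.10 to 4.93) in 4T1–LM cells, and the ratio in 4T1–HM cells was 1.52-fold (1.41 to 1.64), below the limit on the scale used for calls. The log2 response was lower in 4T1–HM than in 4T1–LM cells by 1.45, the widest gap among the members on this scale. With a pseudocount of 0.1 the difference was −1.57 for P4ha2 and −1.55 for Kdm4b. With fragments alone it was −1.60 for P4ha2 and −1.57 for Kdm4b. Of the relatives of Kdm4b, Kdm4a had log2 responses of 0.14 and 0.88 in 4T1–HM and 4T1–LM cells, and Kdm4c, also a HIF target, had 0.68 and 0.97. Neither was called in either clone. Without the pseudocount the ratio of Kdm4c in 4T1–LM cells was 2.20-fold (1.95 to 2.49).

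The other demethylases were not called in any comparison on the scale used for calls. Kdm5b had log2 responses of 0.31 in 4T1–HM and 0.80 in 4T1–LM cells. Without the pseudocount its ratio in 4T1–LM cells was 2.09-fold (1.89 to 2.30). Kdm5c, an eraser of methyl marks on lysine 4 of histone H3, had an FPKM of 18.2 without and 24.3 with DFX in 4T1–HM cells, and 16.5 without and 24.2 with DFX in 4T1–LM cells. Kdm2a, an eraser of methyl marks on lysine 36, had log2 responses of 0.68 in 4T1–HM and 0.66 in 4T1–LM cells. Kdm6a, the X–linked relative of Kdm6b, had 0.57 and 0.37. The 2 members with negative values in both clones were Kdm2b, at −0.31 and −0.33, and Phf8, at −0.63 and −0.74. All members of the class that were not called lay between −0.63 and 0.91 in 4T1–HM and between −0.74 and 0.97 in 4T1–LM cells.

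Among the other JmjC proteins, 1 was raised in both clones and the rest were called in a single clone or in none. Of the 6, 2 were higher (33.3%) and 1 lower (16.7%) in 4T1–HM cells, against 6.93% and 12.4% of all expressed genes. In 4T1–LM cells 1 was higher and 1 lower (16.7% each), against 7.09% and 8.72%. With 6 genes these counts are small. Jmjd6 hydroxylates lysines of splicing factors (ENSMUSG00000056962, chromosome 11, 116837432 to 116843449, minus strand). Its FPKM was 21.8 without and 51.7 with DFX in 4T1–HM cells, and 12.7 without and 50.6 with DFX in 4T1–LM cells. Both DFX libraries stood above either control and close to each other. DFX raised it 2.38-fold (2.24 to 2.52) in 4T1–HM and 3.98-fold (3.71 to 4.27) in 4T1–LM cells, and the clones, which differed by 1.71-fold (1.58 to 1.85) without DFX, stood at a ratio of 1.02-fold (0.978 to 1.07) with it.

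Hspbap1 encodes a protein that binds a small heat shock protein (ENSMUSG00000022849, chromosome 16, 35770386 to 35828446, plus strand). Its FPKM was 2.29 without and 5.81 with DFX in 4T1–HM cells, and 3.30 without and 3.85 with DFX in 4T1–LM cells. HM_DFX was the highest library and HM_Ctrl the lowest. It was higher with DFX in 4T1–HM cells, at 2.54-fold (2.12 to 3.05), and had a log2 response of 0.18 in 4T1–LM cells. Its interval rests on the smallest fragment numbers that the FPKM allow.

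Jmjd8 encodes a JmjC protein of the secretory pathway (ENSMUSG00000025736, chromosome 17, 25828867 to 25831842, plus strand). Its FPKM was 7.43 without and 2.57 with DFX in 4T1–HM cells, and 7.24 without and 4.99 with DFX in 4T1–LM cells, from 343 and 102 fragments in the 4T1–HM pair and 314 and 301 in the 4T1–LM pair. HM_DFX was the lowest library. It fell with DFX in 4T1–HM cells, to 0.347 of the control (0.275 to 0.434), and stood at 0.689 of the control (0.586 to 0.810) in 4T1–LM cells, where it was not called. Of its exon bases 39.3% overlap Stub1 on the opposite strand, whose FPKM was 54.7 to 71.1. Whether the counting used strand is not given in the sources used here, so the value of Jmjd8 is uncertain.

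Jmjd4 hydroxylates a translation termination factor (ENSMUSG00000036819, chromosome 11, 59450045 to 59458567, plus strand). Its FPKM was 2.99 without and 2.11 with DFX in 4T1–HM cells, and 3.35 without and 1.03 with DFX in 4T1–LM cells. LM_DFX was the lowest library. It fell in 4T1–LM cells, to 0.307 of the control (0.253 to 0.370), while the log2 response in 4T1–HM cells was −0.36. Kdm8 had an FPKM of 1.55 without and 0.933 with DFX in 4T1–HM cells, and 2.08 without and 0.803 with DFX in 4T1–LM cells, and was not called. Tyw5, which modifies a transfer RNA, had an FPKM of 3.87 without and 5.36 with DFX in 4T1–HM cells, and 4.94 without and 4.91 with DFX in 4T1–LM cells, and was not called.

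Of the TET enzymes, which oxidise 5-methylcytosine in DNA, Tet3 was the most abundant (ENSMUSG00000034832, chromosome 6, 83362373 to 83459084, minus strand). Its FPKM was 2.98 without and 7.68 with DFX in 4T1–HM cells, and 3.07 without and 4.79 with DFX in 4T1–LM cells. The controls were close to each other, and HM_DFX was the highest library. It was higher with DFX in 4T1–HM cells, at 2.58-fold (2.37 to 2.80), and the ratio in 4T1–LM cells was 1.56-fold (1.44 to 1.70), short of the limit. Tet2 had an FPKM of 1.65 without and 3.08 with DFX in 4T1–HM cells, and 0.889 without and 2.66 with DFX in 4T1–LM cells. Its DFX libraries were above both controls, with log2 responses of 0.62 and 0.96, neither of them called. Without the pseudocount the ratio of Tet2 was 1.87-fold (1.664 to 2.105) in 4T1–HM and 2.99-fold (2.595 to 3.466) in 4T1–LM cells.

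Of the 9 ALKBH and FTO genes 1 was called higher in 4T1–LM cells (11.1%), against 7.09% of all expressed genes, and 0 lower, against 8.72%. In 4T1–HM cells 0 were called higher, against 6.93%, and 1 lower (11.1%), against 12.4%. With 9 genes these counts are small, and the gene called higher was Alkbh5. Alkbh5 removes N6-methyladenosine from messenger RNA (ENSMUSG00000042650, chromosome 11, 60536381 to 60558512, plus strand). Its FPKM was 49.1 without and 98.3 with DFX in 4T1–HM cells, and 30.3 without and 77.9 with DFX in 4T1–LM cells. Both DFX libraries stood above both controls. DFX raised it 2.57-fold (2.47 to 2.68) in 4T1–LM cells. In 4T1–HM cells the ratio was 2.00-fold (1.93 to 2.07) and the log2 response with the pseudocount 0.99, just short of the limit. Fto, which removes methyl groups from the same RNA base, had an FPKM of 5.05 without and 3.72 with DFX in 4T1–HM cells, and 5.26 without and 5.13 with DFX in 4T1–LM cells, and was not called.

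Alkbh7, a mitochondrial member of the family (ENSMUSG00000002661, chromosome 17, 56997339 to 56999322, plus strand), had an FPKM of 9.98 without and 4.33 with DFX in 4T1–HM cells, and 8.03 without and 7.50 with DFX in 4T1–LM cells. HM_DFX was the lowest library and the other 3 were closer together. It fell in 4T1–HM cells, to 0.434 of the control (0.320 to 0.581), and had a log2 response of −0.09 in 4T1–LM cells. With each library rescaled by its median ratio, the fall in 4T1–HM cells became −0.92 and was no longer called. The DNA repair enzymes Alkbh2 and Alkbh3 were not called, with log2 responses of −0.06 and 0.42 in 4T1–HM and of 0.84 and 0.80 in 4T1–LM cells.

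In the OGFOD class 1 of 3 genes was called higher in 4T1–LM cells (33.3%), against 7.09% of all expressed genes. This was Ogfod2 (ENSMUSG00000023707, chromosome 5, 124112297 to 124115483, plus strand). Its FPKM was 2.01 without and 2.31 with DFX in 4T1–HM cells, and 2.28 without and 5.98 with DFX in 4T1–LM cells, from 76 and 75 fragments in the 4T1–HM pair and 81 and 296 in the 4T1–LM pair. LM_DFX stood apart from the other 3 libraries, which lay between 2.01 and 2.31. The DFX response was 2.63-fold (2.05 to 3.40) in 4T1–LM cells and 1.15-fold (0.825 to 1.60) in 4T1–HM cells. Ogfod2 was also the single member called lower in HM_DFX than in LM_DFX, with a log2 difference of −1.08. Ogfod1, which hydroxylates a protein of the small ribosomal subunit, had an FPKM of 7.58 without and 6.73 with DFX in 4T1–HM cells, and 9.12 without and 7.26 with DFX in 4T1–LM cells, and was not called, and Ogfod3 had log2 responses of −0.71 and 0.03.

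The collagen prolyl hydroxylases split by subunit. P4ha1 and P4ha2, catalytic subunits of the prolyl 4-hydroxylase that stabilises the collagen triple helix, were called higher in 4T1–LM cells. These are 33.3% of the 6 members, against 7.09% of all expressed genes. In 4T1–HM cells 0 were called higher, against 6.93%. The other 4 members of the class all had negative log2 responses in both clones, between −0.42 and −0.07 in 4T1–HM and between −0.71 and −0.16 in 4T1–LM cells, and were not called, although for P3h2 in 4T1–HM cells the sign turned with median–ratio scaling. The summed FPKM of the class was 67.5 without and 120 with DFX in 4T1–HM cells, and 39.5 and 149 in 4T1–LM cells.

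P4ha1 (ENSMUSG00000019916, chromosome 10, 59323296 to 59373304, plus strand) had an FPKM of 46.6 without and 93.0 with DFX in 4T1–HM cells, and 24.3 without and 121 with DFX in 4T1–LM cells. LM_Ctrl was the lowest library and LM_DFX the highest. DFX raised it 4.98-fold (4.72 to 5.25) in 4T1–LM cells, a log2 response of 2.27 that exceeded 99.0% of the expressed genes. In 4T1–HM cells the ratio was 2.00-fold (1.91 to 2.08) and the log2 response 0.98, just short of the limit. P4ha2 (ENSMUSG00000018906, chromosome 11, 54100095 to 54131665, plus strand) had an FPKM of 9.50 without and 18.1 with DFX in 4T1–HM cells, and 3.53 without and 20.4 with DFX in 4T1–LM cells. The order of its libraries was that of P4ha1. It rose 5.78-fold (5.17 to 6.48) in 4T1–LM cells, and in 4T1–HM cells the ratio was 1.91-fold (1.76 to 2.06). Without DFX it was 2.69-fold (2.38 to 3.05) higher in 4T1–HM than in 4T1–LM cells, and the ratio for P4ha1 was 1.92-fold (1.81 to 2.04), short of the limit.

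P4ha3, the remaining catalytic subunit (ENSMUSG00000051048, chromosome 7, 100285520 to 100319699, plus strand), was scarce. Its FPKM was 0.210 without and 0.155 with DFX in 4T1–HM cells, and 1.5 without and 0.525 with DFX in 4T1–LM cells, from 11 and 7 fragments in the 4T1–HM pair and 74 and 36 in the 4T1–LM pair. Both 4T1–LM libraries were above both 4T1–HM libraries. HM_Ctrl stood at 0.140 of LM_Ctrl (0.0668 to 0.265), the single member called lower in 4T1–HM cells without DFX, and this call was absent when a mean FPKM of at least 1 was required. The prolyl 3-hydroxylases P3h1, P3h2 and P3h3 act on fewer collagen prolines. P3h1 had an FPKM of 6.94 without and 5.56 with DFX in 4T1–HM cells, and 6.36 without and 3.96 with DFX in 4T1–LM cells, and P3h3, the scarcest, had 0.836 without and 0.372 with DFX in 4T1–HM cells, and 1.76 without and 1.2 with DFX in 4T1–LM cells.

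The procollagen lysyl hydroxylases prepare collagen for crosslinking. None of the 3 was called in either clone, but their responses pointed opposite ways in the clones. Of all expressed genes 6.93% were called higher and 12.4% lower in 4T1–HM, and 7.09% and 8.72% in 4T1–LM cells. With DFX all 3 had negative log2 responses in 4T1–HM and positive ones in 4T1–LM cells, and with median–ratio scaling the value of Plod3 in 4T1–HM cells turned to 0.01. Plod1 (ENSMUSG00000019055, chromosome 4, 147909753 to 147936767, minus strand) had an FPKM of 5.87 without and 3.59 with DFX in 4T1–HM cells, and 4.67 without and 7.53 with DFX in 4T1–LM cells. HM_DFX was its lowest library and LM_DFX its highest. The ratio to the control was 0.612 (0.536 to 0.698) in 4T1–HM and 1.61 (1.45 to 1.80) in 4T1–LM cells.

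Plod2, which acts on the collagen telopeptides (ENSMUSG00000032374, chromosome 9, 92542223 to 92608428, plus strand), had an FPKM of 41.3 without and 31.7 with DFX in 4T1–HM cells, and 23.4 without and 38.7 with DFX in 4T1–LM cells. HM_Ctrl and LM_DFX were the highest libraries and LM_Ctrl the lowest. The ratio was 0.767 (0.729 to 0.807) in 4T1–HM and 1.66 (1.57 to 1.75) in 4T1–LM cells. Plod3 had an FPKM of 30.4 without and 27.8 with DFX in 4T1–HM cells, and 23.1 without and 32.2 with DFX in 4T1–LM cells, with ratios of 0.917 (0.861 to 0.975) and 1.39 (1.31 to 1.48).

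**Figure D3:**
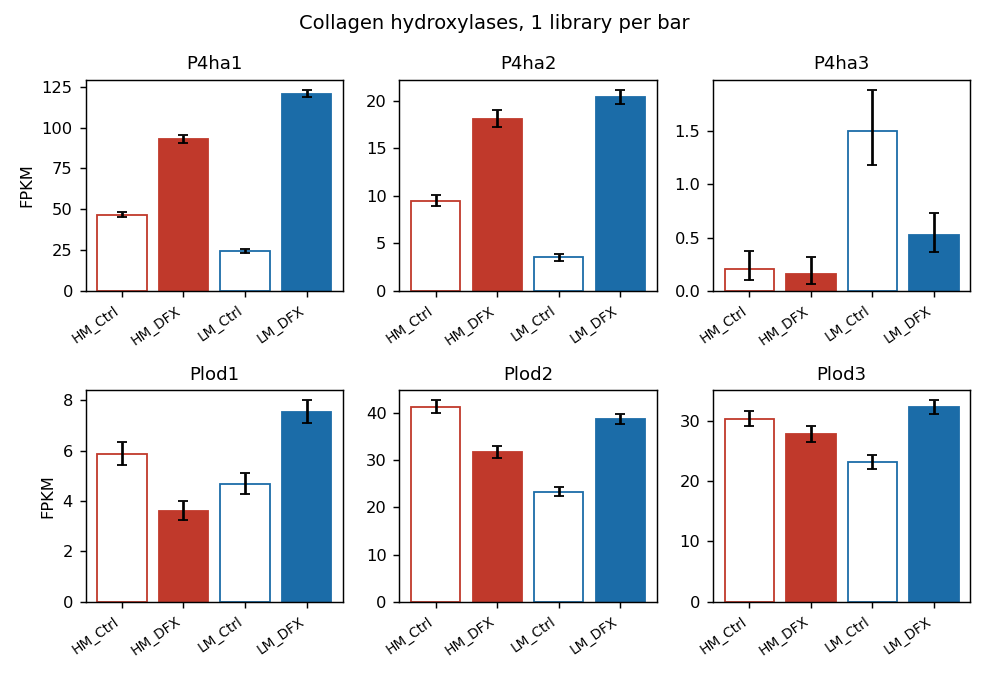
FPKM, vertical axis from 0, of the 3 collagen prolyl 4-hydroxylase subunits and the 3 lysyl hydroxylases in each library, horizontal axis, 1 library per bar, open without and filled with DFX. Error bars are exact 95% Poisson intervals of the fragments and cover counting error only. P4ha1 and P4ha2 are lowest in LM_Ctrl and highest in LM_DFX, and Plod1 and Plod2 are below their control with DFX in 4T1–HM and above it in 4T1–LM.

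Without DFX, Kdm3a, Kdm7a and P4ha2 were called higher in 4T1–HM than in 4T1–LM cells, 6.67% of the 45 against 3.65% of all expressed genes, and P4ha3 was called lower, 2.22% against 3.15%. The median log2 difference was 0.24, with 0.01 for all expressed genes, and 31 of 45 values were positive. With DFX the median was 0.03 and 24 of 45 values were positive, or 28 with median–ratio scaling. Kdm7a was then called higher, against 3.31% of all expressed genes, and Ogfod2 lower, against 5.05%.

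Between the clones 2 of the 7 HIF–target dioxygenases, Kdm3a and P4ha2, were called higher in 4T1–HM cells without DFX (28.6%), against 3.65% of all expressed genes. With DFX 0 were called in either direction, where 3.31% of all expressed genes were higher and 5.05% lower. These counts depended on the processing. Without DFX, Kdm4b was also called with a pseudocount of 0.1, 75th–percentile scaling or fragments alone. With DFX, Plod1 was called lower with a pseudocount of 0.1 or fragments alone. The log2 difference was above 0 for all 7 without DFX and below 0 for 5 of the 7 with it, most of these values being short of the limit. The median log2 difference of the 7 was 0.91 in HM_Ctrl against LM_Ctrl and −0.28 in HM_DFX against LM_DFX, where the values of Kdm3a and Kdm4c, 2 of the 7, stayed above 0. The size of the difference was smaller with DFX for 6 of the 7. For the other 38 members the median was 0.14 without and 0.06 with DFX. The median response of the HIF–target members was 0.68 in 4T1–HM and 2.02 in 4T1–LM cells, and that of the other 38 was 0.14 and 0.37. Of the 7, 1 was called higher in 4T1–HM (14.3%) and 4 in 4T1–LM cells (57.1%), against 6.93% and 7.09% of all expressed genes. The comparisons within and between the clones use the same 4 libraries, so these values do not support each other.

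The response differed at least 2-fold between the clones for 5 members, all of them smaller in 4T1–HM cells, where 5.38% of all expressed genes had a smaller and 3.52% a larger response. These were Kdm4b, with a difference of −1.45, P4ha2 with −1.38, P4ha1 with −1.29, Plod1 with −1.17 and Plod2 with −1.08. All 5 belong to the HIF–target members. That list was written with earlier results of these data known, so the overlap is no independent support. The split, with all 5 smaller in 4T1–HM cells, depended on the pseudocount. With a pseudocount of 0.1, and likewise with fragments and no pseudocount, 7 responses were smaller and 3 larger in 4T1–HM cells, the larger ones being those of Jmjd4, Hspbap1 and P4ha3. Over all genes, 10.46% were smaller and 5.87% larger with the pseudocount of 0.1, and 10.9% and 5.31% with fragments. The difference was not tested, since no library was replicated. A check of the treatment used 7 HIF targets outside the family and Tfrc. Of these 8 genes 1 was called higher in 4T1–HM (12.5%) and 7 in 4T1–LM cells (87.5%), against 6.93% and 7.09% of all expressed genes. Their medians were 0.86 and 2.13. The HIF targets ranged from −0.32 for Car9 to 1.70 for Ndrg1 in 4T1–HM cells, and from 1.24 for Vegfa to 3.62 for Ndrg1 in 4T1–LM cells. Tfrc, the transferrin receptor, whose messenger RNA is stabilised when iron is scarce, had log2 responses of 0.77 in 4T1–HM and 0.81 in 4T1–LM cells, below the limit in both.

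**Figure D4:**
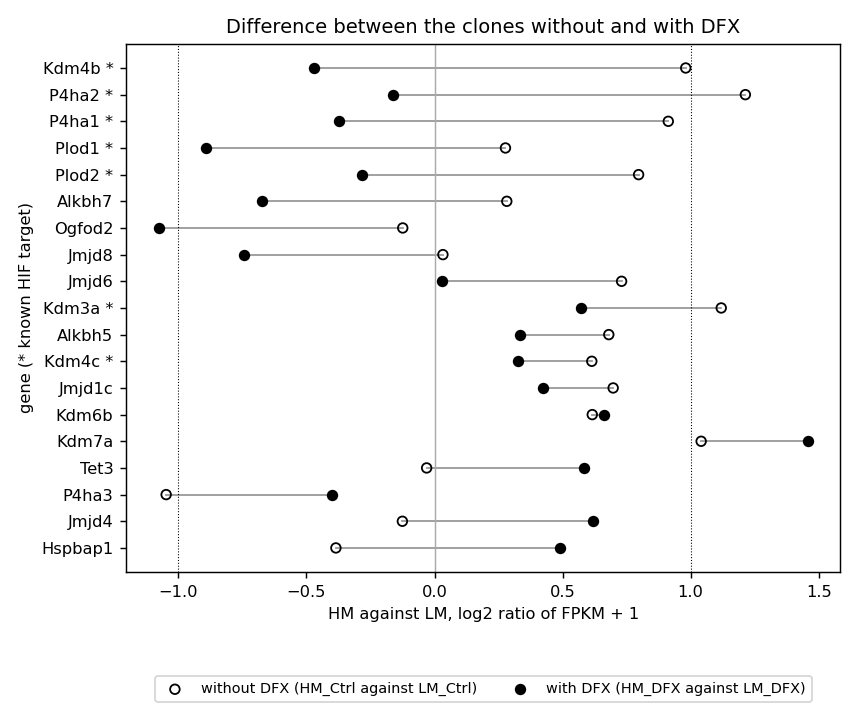
Log2 ratio of FPKM + 1 of 4T1–HM against 4T1–LM, horizontal axis, without DFX (open) and with DFX (filled), for the named dioxygenase genes and the HIF–target members (asterisk), vertical axis, ordered by the difference of the DFX response. Dotted lines mark 2-fold. Kdm4b moves from 0.98 to −0.47 and P4ha1 from 0.91 to −0.37, whereas Kdm6b stays at 0.62 and 0.66.

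Genes that supply or share the chemistry of these enzymes were examined as lists. Of the dioxygenases outside the 47, including the HIF hydroxylases, 8 of 16 found were expressed. Egln3, which hydroxylates HIF and is itself a HIF target, had an FPKM of 85.9 without and 32.8 with DFX in 4T1–HM cells, and 29.8 and 71.7 in 4T1–LM cells. It fell in 4T1–HM cells, with a log2 response of −1.36, and rose in 4T1–LM cells, with 1.24. Egln1, the main HIF prolyl hydroxylase, had 54.2 and 53.9, and 37.3 and 77.1, in the same order and rose in 4T1–LM cells, with 1.03. Phyh, a peroxisomal hydroxylase of branched fatty acids, fell in 4T1–HM cells, with −1.15. In 4T1–HM cells the list had 0 genes called higher and 2 lower (25%), against 6.93% and 12.4% of all expressed genes. In 4T1–LM cells it had 2 higher (25%) and 0 lower, against 7.09% and 8.72%. With 8 genes these counts are small.

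The 21 genes that make or consume 2-oxoglutarate had negative log2 responses in 15 cases in each clone, with medians of −0.56 in 4T1–HM and −0.40 in 4T1–LM cells. Of these, 0 were higher and 2 lower (9.52%) in 4T1–HM, and 2 were higher (9.52%) and 2 lower in 4T1–LM cells. These shares are near those of all expressed genes, of which 12.4% were lower in 4T1–HM cells, and 7.09% higher and 8.72% lower in 4T1–LM cells. Idh1, which makes 2-oxoglutarate in the cytosol, had an FPKM of 81.4 without and 15.6 with DFX in 4T1–HM cells, and 63.1 and 14.8 in 4T1–LM cells. Both DFX libraries were far below both controls, and it fell by 2.32 and 2.02 on the log2 scale. Got1, a transaminase that uses 2-oxoglutarate, rose in 4T1–LM cells, with 1.31. Among 6 expressed genes of iron delivery and ascorbate uptake, Slc23a2, an ascorbate transporter, was the single one called, with 1.18 in 4T1–LM cells. This is 16.7% of the list, against 7.09% of all expressed genes.

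Of the partners of the collagen hydroxylases 9 of 14 found were expressed. In 4T1–HM cells 1 was higher (11.1%) and 2 lower (22.2%), against 6.93% and 12.4% of all expressed genes. In 4T1–LM cells 1 was higher and 1 lower (11.1% each), against 7.09% and 8.72%. P4hb, the subunit that pairs with P4ha1 and P4ha2, had an FPKM of 299 without and 616 with DFX in 4T1–HM cells, and 243 and 606 in 4T1–LM cells. It rose in both clones, with log2 responses of 1.04 and 1.31, and both DFX libraries stood above both controls. Loxl3, a lysyl oxidase, fell in both, with −2.77 in 4T1–HM and −1.36 in 4T1–LM cells. Crtap, which forms a complex with P3h1, fell in 4T1–HM cells, with −1.43, and had −0.87 in 4T1–LM cells.

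**Figure D5:**
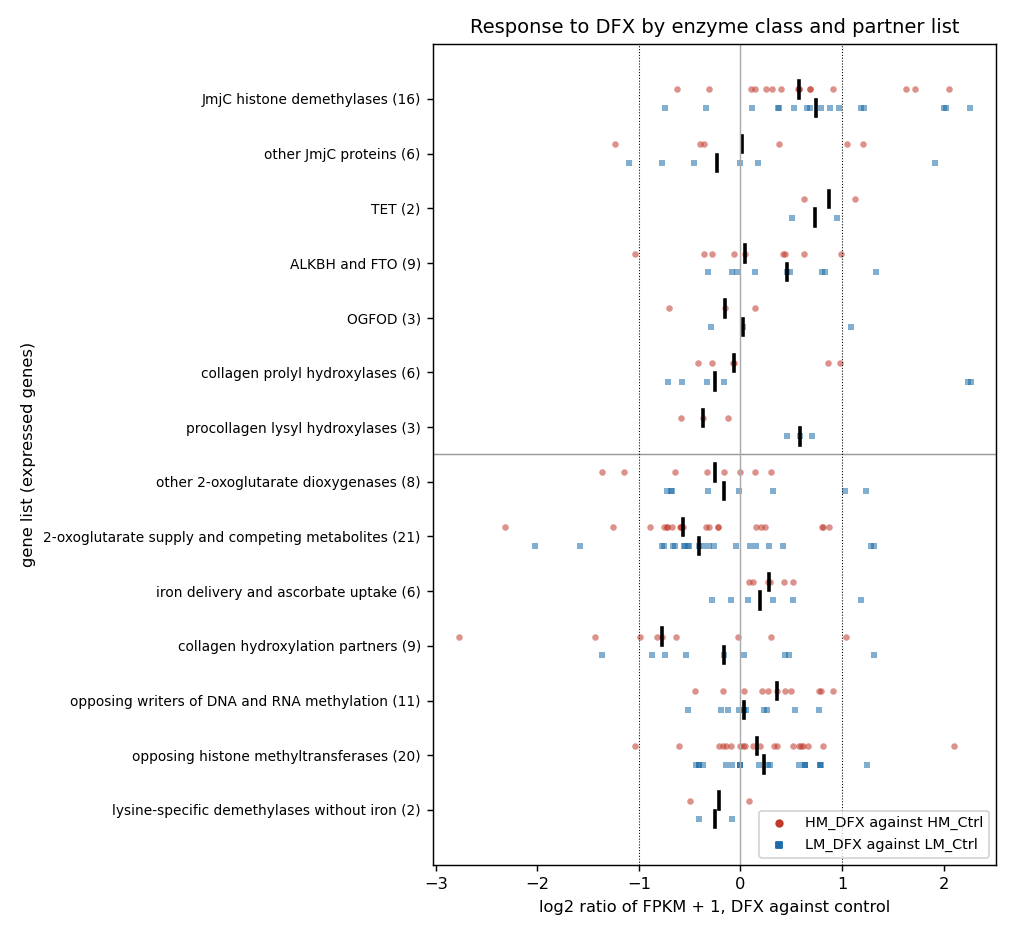
Log2 ratio of FPKM + 1 for DFX against control, horizontal axis, for each expressed gene of the 7 dioxygenase classes (above the line) and of the 7 partner lists (below it), vertical axis, with the number of genes in parentheses. Circles are 4T1–HM, squares 4T1–LM, black ticks the median and dotted lines 2-fold. The median of the JmjC histone demethylases is 0.57 in 4T1–HM and 0.74 in 4T1–LM, and that of the 2-oxoglutarate supply genes −0.56 and −0.40.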

How the data were processed

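RNA was isolated from 4 cultures of 4T1 clones, and poly(A)–selected directional libraries were sequenced with paired ends. Per the labels and the submitters' processing notes, the authors used FastQC, Trimmomatic, HISAT2 and featureCounts with build mm10, and they deposited FPKM per gene without a filter on low values. Tool versions, the annotation release and the strand setting of the counting are not given in the sources used here. The authors' edgeR calls were not repeated, since 1 library per condition gives no estimate of spread.

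Members were matched by symbol. The members and the lists were chosen with earlier results of these data known. Genes that reached an FPKM of 1 in any of the 4 libraries were kept, a pseudocount of 1 was added, and log2 ratios of at least 2-fold were called in 4 comparisons. Fragments were recovered with exon lengths of GENCODE M21, whose coordinates match those of 45128 genes. Of 18236 such genes above 0, 96.8% were whole in all libraries within 0.02. All 47 members were whole, 8 of them at a solved length, and for Kdm3b and Hspbap1 the smallest solution was taken. Fragments served for depth, for counting error, with exact intervals at 95%, and for an alternative set of ratios given below (scipy 1.17.1, pandas 2.3.3, Python 3.11.15). Named genes were the members past 2-fold in any comparison or in the difference of responses, the most abundant member of each class, members below the limit, up to 3 partner genes per list with the largest change, Tfrc and HIF targets. Some results that this rule covers are not reported here. As alternatives, the pseudocount was lowered to 0.1, the filter was dropped or set on the mean FPKM, libraries were scaled by median ratio or 75th percentile, the threshold was set to 1.5-fold, fragments were used without a pseudocount, and the HIF–target members were left out of the median. Promoter windows come from RefSeq (GRCm38.p6), where 39 of 47 members matched. Kdm2a, Kdm3b, Kdm4b, Kdm5a, Kdm6b, Ogfod3, P3h2 and Plod2 did not. Exons of more than 15% overlap with a gene on the opposite strand occurred in Jmjd8, Alkbh2, P3h2, Tyw5, Kdm3b and Ogfod3, whose values are uncertain if the counting ignored strand.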

Additional observations from a re-analysis of the deposited data

Results flagged for a closer look

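In 3 dioxygenase genes and 2 related genes DFX shifted the 2 clones in opposite directions, with counting intervals on opposite sides of no change. The difference between the clones was not tested. Differences are those of the log2 response, 4T1–HM minus 4T1–LM. Plod1 differed by −1.17, with −0.58 in 4T1–HM and 0.59 in 4T1–LM cells. Plod2 differed by −1.08, with −0.37 and 0.71. Plod3 differed by −0.58, with −0.12 and 0.46, and with median–ratio scaling its response in 4T1–HM cells became 0.01, so that the opposite direction was lost. Egln3, a HIF prolyl hydroxylase outside the 47 genes, differed by −2.60, with −1.36 and 1.24. Car9, a carbonic anhydrase known as a HIF target, differed by −2.10, with −0.32 and 1.78. Groups of 1 library could not be examined for samples that stand apart.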

How the results depend on the processing

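Each value rests on 1 library, so variation between cultures is unknown, and no library could be left out. No paired analysis was possible because each condition has 1 library and the labels carry no replicate numbers. Of 25 calls of single named members, 25 were kept with a pseudocount of 0.1, without a filter, with 75th–percentile scaling and with fragments alone. With a mean FPKM of at least 1, all 24 that could be computed were kept, and with median–ratio scaling 24 of 25. No call changed its direction under these 6 alternatives. Among the named members, calls gained were 4 with the pseudocount of 0.1, 3 with median–ratio scaling, 1 with 75th–percentile scaling and 6 with fragments alone. The medians over members kept their sign under each alternative, and without the HIF–target members they were 0.14 in 4T1–HM and 0.37 in 4T1–LM cells.

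At 1.5-fold, 14 members were higher and 4 lower with DFX in 4T1–HM, 20 higher and 4 lower in 4T1–LM cells, 13 higher and 2 lower in HM_Ctrl against LM_Ctrl, 5 higher and 8 lower in HM_DFX against LM_DFX, and 16 differed in response, 12 smaller and 4 larger in 4T1–HM cells. Of all expressed genes, 16.0% were then higher and 26.02% lower in 4T1–HM, 16.5% and 19.95% in 4T1–LM cells, 10.49% and 8.70% in HM_Ctrl against LM_Ctrl, and 9.95% and 14.6% in HM_DFX against LM_DFX. Of the same genes, 16.4% had a smaller and 9.77% a larger response in 4T1–HM cells. With fragments alone (9786 genes), 7 members were higher and 3 lower with DFX in 4T1–HM, and 13 higher and 3 lower in 4T1–LM cells. In HM_Ctrl against LM_Ctrl 4 were higher and 2 lower, and in HM_DFX against LM_DFX 2 were higher and 5 lower. In response 10 differed, 7 smaller and 3 larger in 4T1–HM cells. Of all 9786 genes, 9.38% were higher and 19.5% lower with DFX in 4T1–HM, and 10.8% and 14.3% in 4T1–LM cells. In HM_Ctrl against LM_Ctrl 6.72% were higher and 5.26% lower. In HM_DFX against LM_DFX 6.21% were higher and 9.76% lower. The response was smaller in 4T1–HM cells for 10.9% and larger for 5.31%. A pseudocount of 0.1 gave 3 lower with DFX in 4T1–LM cells, 5 lower in HM_DFX against LM_DFX and 10 that differed in response, again 7 smaller and 3 larger. Of all expressed genes, 13.58% were then lower with DFX in 4T1–LM cells and 9.34% lower in HM_DFX against LM_DFX. At this pseudocount 10.46% of them had a smaller and 5.87% a larger response in 4T1–HM cells. A mean FPKM of at least 1 left 0 lower in HM_Ctrl against LM_Ctrl, since P4ha3 was filtered out. Median–ratio scaling moved the median of all expressed genes from −0.10 to 0.00 in 4T1–HM with DFX, where 8.90% were then higher and 10.1% lower in place of 6.93% and 12.4%. Alkbh7 was lost there, leaving 1 member lower, and Alkbh5, Jmjd1c and P4ha1 were gained, giving 9 higher. In 4T1–LM cells 11 members were higher with this scaling, against 7.66% of all expressed genes. Plod2 no longer differed 2-fold in response (−0.99).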

Other observations

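Of 20 expressed histone methyltransferases, which write marks that the JmjC demethylases remove or related ones, 1 was higher and 1 lower with DFX in 4T1–HM, and 1 was higher and 0 lower in 4T1–LM cells. Of all expressed genes 6.93% were higher and 12.4% lower in 4T1–HM, and 7.09% and 8.72% in 4T1–LM cells, so the share higher was near that of all genes. The median log2 responses of the list were 0.16 and 0.23. Dot1l, which methylates lysine 79 of histone H3, had an FPKM of 11.3 without and 51.7 with DFX in 4T1–HM cells, and 12.1 and 30.0 in 4T1–LM cells. It rose in both clones, with 2.10 and 1.24. Ehmt2, which writes methyl marks on lysine 9 of histone H3, the residue Kdm3a acts on, had an FPKM of 50.0, 23.8, 44.7 and 33.5 in the same order. It fell in 4T1–HM cells, with −1.04, and had −0.41 in 4T1–LM cells. Of the 11 writers of DNA and RNA methylation, 0 were called in either clone, with medians of 0.36 in 4T1–HM and 0.04 in 4T1–LM cells. The demethylases Kdm1a and Kdm1b, which use a flavin and no iron, were not called either, with medians of −0.21 and −0.25.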
